A study of Mus musculus with 10 samples.

Results

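Matricellular proteins are secreted into the extracellular matrix but signal more than they bear load: they bind collagen, growth factors and cell surface receptors and change how cells attach, migrate and respond. Fibronectin is the adhesive glycoprotein that they meet in provisional matrix, which is laid down when a tissue is wounded. In the brain, astrocytes, vascular cells, meningeal fibroblasts and phagocytes are known sources, and some members, hevin and thrombospondins among them, are known as organisers of synapses. Described here are 10 genes chosen by name for this biology: Sparc, Sparcl1, Smoc1 and Smoc2 (the SPARC family), Thbs1, Thbs2 and Thbs4 (thrombospondins), Postn (periostin), Spp1 (osteopontin) and Fn1 (fibronectin). Of these 10, 9 had a row that named them alone among the 30142 genes tested, with 1 row each. No row of the array annotation used here named Spp1, which was therefore not analysed here.

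The samples were brain tissue from adult mice, 8 to 12 weeks old, which the labels call male and female. Tissue was taken 7 days after a controlled cortical impact. This injury is made by a piston driven into the exposed brain on 1 side, here to a depth of 2 mm. The 5 ipsilateral samples came from the impact site, and the 5 contralateral samples from the matching region of the opposite hemisphere. All samples therefore came from impacted mice, and the sample set used here held no sham-operated or unimpacted group. For strain and genotype, the sources used here give no entry. The comparison asked whether transcripts of these matrix proteins stood at other levels at the impact site than on the opposite side. A whole-transcript array was run for every sample, and values are deposited log2 signals, on which a difference of 1 is a 2-fold change in signal.

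Array medians lay between 4.71 and 4.84, with every ipsilateral median above every contralateral one. Differences between sides (log2, ipsilateral minus contralateral) come from a limma fit across all genes, with the SE of the fit and a two-sided Benjamini-Hochberg adjusted p over all 30142 genes; a gene is said to rise or fall where that p is under 0.05. By this test 1.22% of all genes were higher ipsilaterally and 4.33% lower, and these shares were sensitive to single arrays. Leaving out ipsilateral replicate 1 gave 760 higher genes in place of 369, leaving out ipsilateral replicate 5 gave 183, and leaving out contralateral replicates 1, 2, 3 and 5 gave 111, 185, 124 and 173. The 1305 lower genes became 740, 795 and 835 without contralateral replicates 1, 3 and 5. The share of rises among all calls was 22.0% with the values as deposited, 9.55% with each array centred on its median, and 32.4% after cyclic loess scaling. Neuronal markers were present on all arrays (mean log2 signal of 9 genes 14.37 to 15.04). Xist stood between 4.53 and 4.67, below every array median, although the labels name both sexes. Whether its row can detect the transcript was not tested. The labels call the samples biological replicates without naming animals, and p-values measure the spread between these samples.

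Of the 9 measured genes, 2 rose and none fell. The risers were Sparc and Smoc1, both of the SPARC family. Set against 1.22% of all genes called higher and 4.33% called lower, the other 7 did not pass, 6 of them with a positive difference. At an unadjusted limma p under 0.05, 6 of the 9 differed, all of them higher, beside 21.3% of all genes in either direction. The median difference over the 9 was 0.42, beside 0.02 over all genes, and 8 of 9 were positive, beside 56.1% of all genes. In both risers the groups did not overlap, which was the case for 7.25% of all genes. The members were chosen with earlier results of these data known. The shares set beside all genes are therefore a description and not a test of the group.

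**Figure D1:**
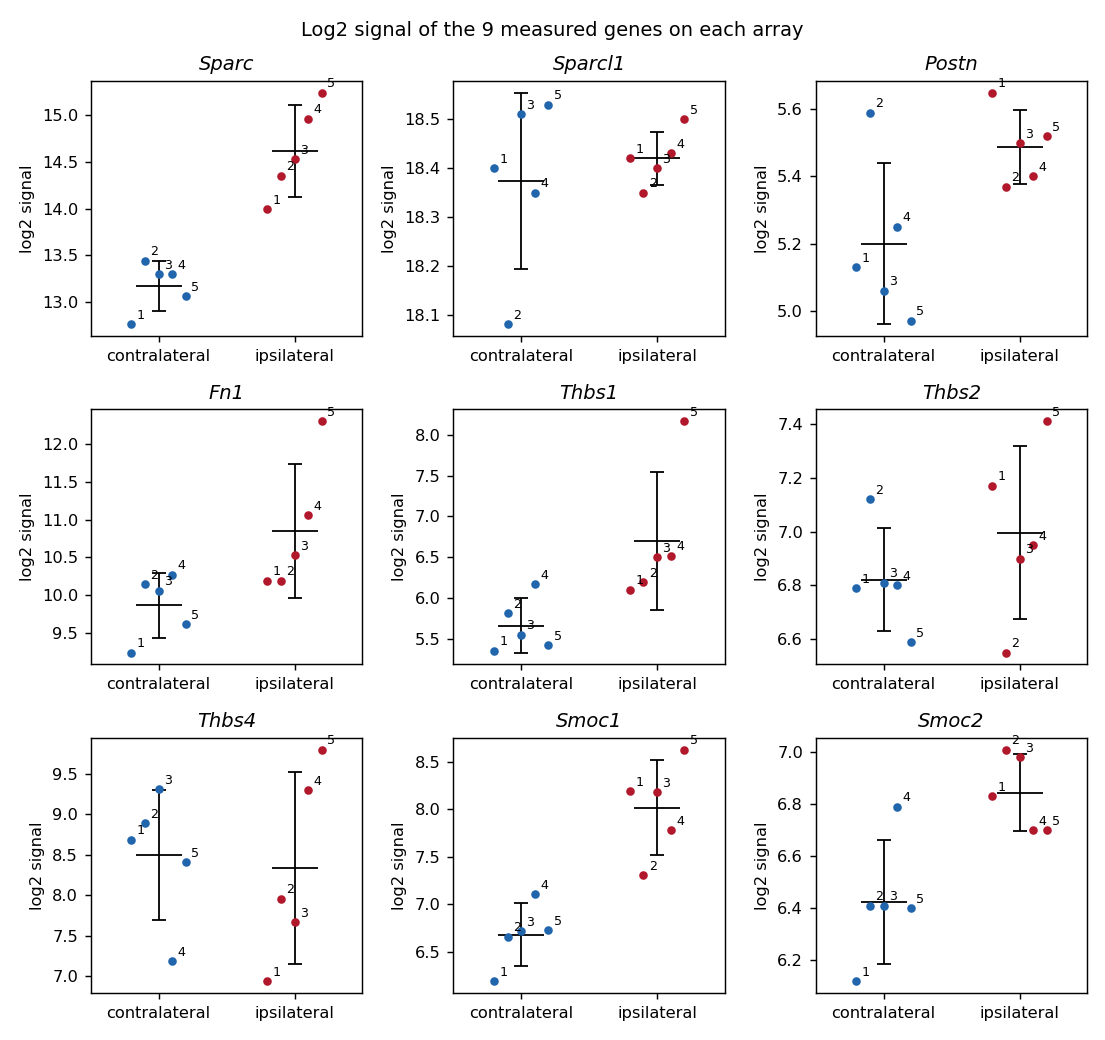
Log2 signal of the 9 measured genes on each array, by side; points are arrays, numbered by replicate, and bars are the mean and SD of 5 arrays, each panel with its own axis. Every ipsilateral point lies above every contralateral one for Sparc and Smoc1, and the sides overlap for the other 7 genes.

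Sparc encodes a collagen- and calcium-binding glycoprotein, also called osteonectin, that acts in collagen assembly and in the shape and adhesion of cells. Its log2 signal on ipsilateral replicates 1 to 5 was 13.99, 14.35, 14.53, 14.96 and 15.24, and on contralateral replicates 1 to 5 it was 12.76, 13.44, 13.30, 13.30 and 13.06. The lowest ipsilateral array thus stood above the highest contralateral one. The signal rose 2.72-fold (log2 difference 1.44 ± 0.22 (SE), 95% interval 0.95 to 1.93, limma adjusted p = 0.00480). Leaving out any 1 array kept the difference between 1.29 and 1.60 and the call in 10 of 10 fits. With arrays 2 and 4 of each side left out, which leaves 3 arrays a side, the difference was 1.55 and the limma call ended (adjusted p = 0.0761). These are the arrays with the highest mean levels of 8 choroid plexus genes: 8.40 and 7.09 ipsilaterally and 8.99 and 6.73 contralaterally, where the other 6 arrays lay between 5.64 and 5.77.

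Smoc1 encodes a SPARC-related modular calcium-binding protein, a matrix protein known to restrain bone morphogenetic protein signalling. Its ipsilateral log2 signals were 8.19, 7.31, 8.18, 7.78 and 8.63 for replicates 1 to 5, and the contralateral ones 6.19, 6.66, 6.72, 7.11 and 6.73. All 5 ipsilateral arrays were above all 5 contralateral ones, with the narrowest approach between ipsilateral replicate 2 and contralateral replicate 4. The rise was 2.52-fold (log2 difference 1.34 ± 0.23 (SE), 95% interval 0.82 to 1.85, limma adjusted p = 0.00896). It passed in each of the 10 fits that left out 1 array (1.18 to 1.51) and without the arrays numbered 2 and 4 (1.79, adjusted p = 0.0169).

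Smoc2, the closest relative of Smoc1, had a smaller difference that did not pass. Ipsilateral arrays stood at 6.83, 7.01, 6.98, 6.70 and 6.70, and contralateral arrays at 6.12, 6.41, 6.41, 6.79 and 6.40, in replicate order. Contralateral replicate 4 lay inside the ipsilateral range, and the other 4 contralateral arrays lay below it. The log2 difference was 0.42 ± 0.12 (SE), with a 95% interval of 0.16 to 0.68 (limma adjusted p = 0.0654). Without contralateral replicate 4 it was 0.51 and passed (adjusted p = 0.0156). This was the 1 call in 10 fits that left out 1 array (limma adjusted p up to 0.137 in the others). The intervals of the Smoc1 and Smoc2 differences did not overlap, but the difference between the 2 genes was not tested.

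Sparcl1, or hevin, is the SPARC relative that astrocytes secrete and that bridges neurexin and neuroligin at synapses. It did not pass (limma adjusted p = 0.814): ipsilateral arrays stood at 18.42, 18.35, 18.40, 18.43 and 18.50, and contralateral arrays at 18.40, 18.08, 18.51, 18.35 and 18.53. The ipsilateral arrays all fell inside the contralateral range. Its log2 difference was 0.05 ± 0.08 (SE), and its 95% interval of -0.14 to 0.23 lies wholly below that of Sparc. The sign was not stable, turning negative under quantile, median and cyclic loess scaling (-0.24, -0.016 and -0.038). These signals lie near the highest value on any array (19.93), and how far the array can still resolve differences there was not tested.

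**Figure D2:**
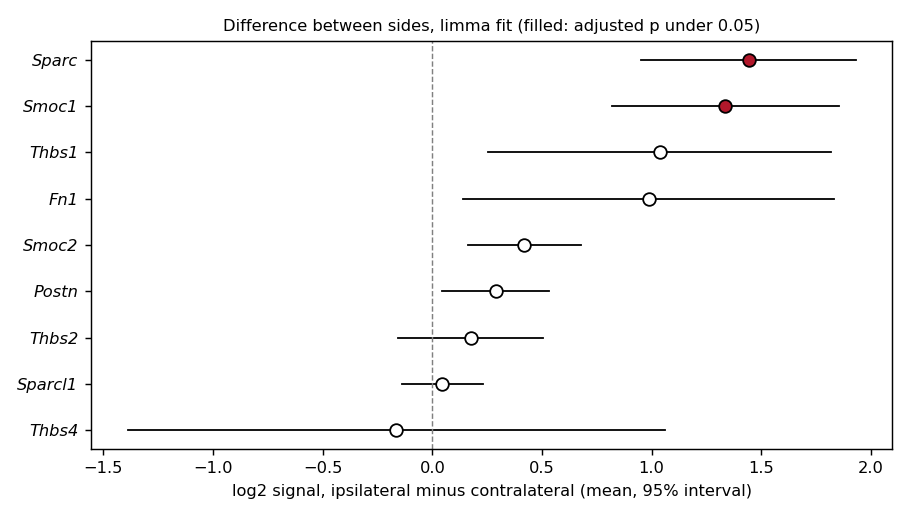
Log2 difference between sides for each measured gene (point) with the 95% interval of the limma fit (line), from 5 arrays a side; filled points have an adjusted p under 0.05. Sparc (1.44) and Smoc1 (1.34) are filled, and the intervals of Thbs2, Sparcl1 and Thbs4 include 0.

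Fn1 and Thbs1 had larger mean differences than Smoc2 but a wide spread on the ipsilateral side, and neither passed. Fn1 encodes fibronectin, whose plasma form enters injured tissue and whose cellular form is made by fibroblasts, vascular cells and macrophages. Its ipsilateral signals were 10.19, 10.19, 10.53, 11.06 and 12.30 in replicate order, and its contralateral ones 9.24, 10.15, 10.06, 10.27 and 9.62. Ipsilateral replicate 5 was far above the rest, while replicates 1 and 2 lay inside the contralateral range. The log2 difference was 0.99 ± 0.38 (SE) (95% interval 0.14 to 1.83, limma adjusted p = 0.168), and 0.62 without ipsilateral replicate 5 (adjusted p = 0.215).

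Thbs1 encodes thrombospondin 1, a trimeric glycoprotein that binds CD36 and CD47, restrains vessel growth and activates latent TGF-beta. On the ipsilateral arrays it stood at 6.10, 6.19, 6.50, 6.52 and 8.17, and on the contralateral arrays at 5.35, 5.81, 5.55, 6.17 and 5.42. Of the 5 ipsilateral arrays 4 were above every contralateral one, and replicate 5 stood 1.65 above the next highest of its side. The log2 difference was 1.04 ± 0.35 (SE) (95% interval 0.25 to 1.82, limma adjusted p = 0.123). Leaving out ipsilateral replicate 5 lowered it to 0.67 and left it short of the threshold (adjusted p = 0.0694).

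Ipsilateral replicate 5 was the highest ipsilateral array for 7 of the 9 genes, all except Postn and Smoc2. Contralateral replicate 1 was the lowest of its side for 5 of 9. The excess of replicate 5 was not of 1 size: relative to the contralateral mean it stood 2.07 above in Sparc, 1.95 in Smoc1, 2.43 in Fn1 and 2.51 in Thbs1, whereas ipsilateral replicate 1 stood 0.82, 1.51, 0.32 and 0.44 above. Without ipsilateral replicate 5 the differences of Sparc and Smoc1 were 1.29 and 1.18, and those of Fn1 and Thbs1 0.62 and 0.67.

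**Figure D3:**
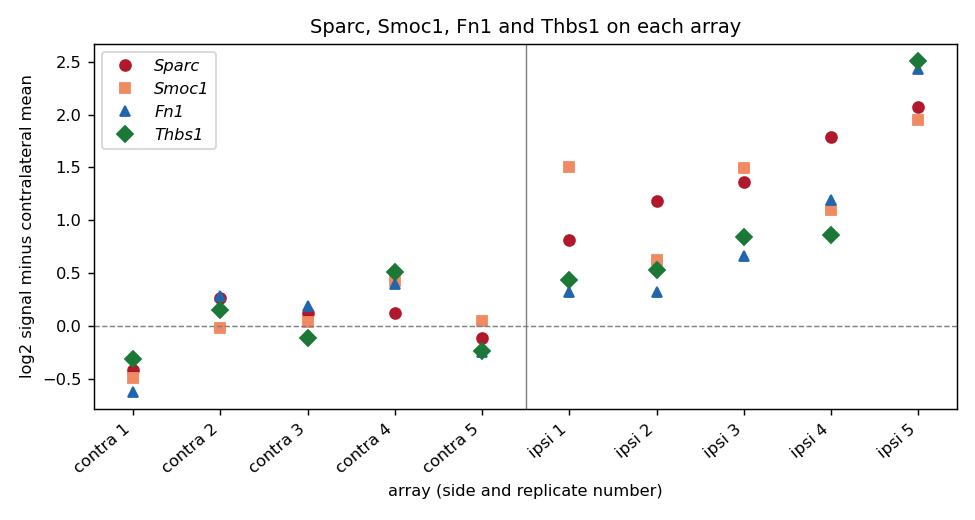
Log2 signal minus the contralateral mean for Sparc, Smoc1, Fn1 and Thbs1 on each of the 10 arrays; the grey line separates the sides and 0 is the contralateral mean. On ipsilateral replicate 5 Thbs1 (2.51) and Fn1 (2.43) are above Sparc (2.07), while on the other ipsilateral arrays both stay below Sparc.

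Thbs2, another trimeric thrombospondin with functions close to those of thrombospondin 1, did not pass. Ipsilateral signals were 7.17, 6.55, 6.90, 6.95 and 7.41, contralateral ones 6.79, 7.12, 6.81, 6.80 and 6.59. The lowest of all 10 arrays was ipsilateral replicate 2 and the highest ipsilateral replicate 5. The log2 difference of 0.17 ± 0.15 (SE) had a 95% interval of -0.16 to 0.51 (limma adjusted p = 0.560), and it was 0.07 without ipsilateral replicate 5. Ipsilateral replicate 5 was the highest ipsilateral array for both Thbs1 and Thbs2, and the difference between the 2 genes was not tested.

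Thbs4 encodes a pentameric thrombospondin, known in the brain from astrocytes of the neurogenic subventricular zone. It varied more between arrays of the same side than any other member: 6.94, 7.96, 7.67, 9.30 and 9.80 ipsilaterally and 8.69, 8.89, 9.31, 7.19 and 8.41 contralaterally. High and low arrays occurred on both sides. The SD was 1.18 ipsilaterally and 0.80 contralaterally, and the log2 difference was -0.16 ± 0.55 (SE), with a 95% interval of -1.39 to 1.06 that allows more than a doubling in either direction (limma adjusted p = 0.906). Its sign turned without ipsilateral replicate 1 (0.18), ipsilateral replicate 3 (0.002) or contralateral replicate 3 (0.039).

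The arrays that stood apart within a side in Thbs4 also stood apart in oligodendrocyte genes, a pattern looked at after the values had been seen. The mean log2 signal of 7 such genes was 11.57 and 11.23 on ipsilateral replicates 4 and 5, against 10.28 to 10.50 on the other ipsilateral arrays. It was 10.84 on contralateral replicate 4, against 11.85 to 12.23 on the other contralateral arrays. All 7 genes had negative differences between sides, and Mal, which encodes a myelin proteolipid, fell (-1.26, limma adjusted p = 0.0148). The same arrays were the highest ipsilaterally and the lowest contralaterally in 3 other lists, so this order was not particular to oligodendrocyte genes. Ipsilateral replicates 4 and 5 and contralateral replicate 4 had mean log2 signals of 10.60, 10.77 and 10.16 in astrocyte genes, 9.33, 9.96 and 6.90 in reactive astrocyte genes, and 8.54, 8.51 and 8.18 in oligodendrocyte precursor genes. The part of these 4 lists in the Thbs4 values was not tested.

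**Figure D4:**
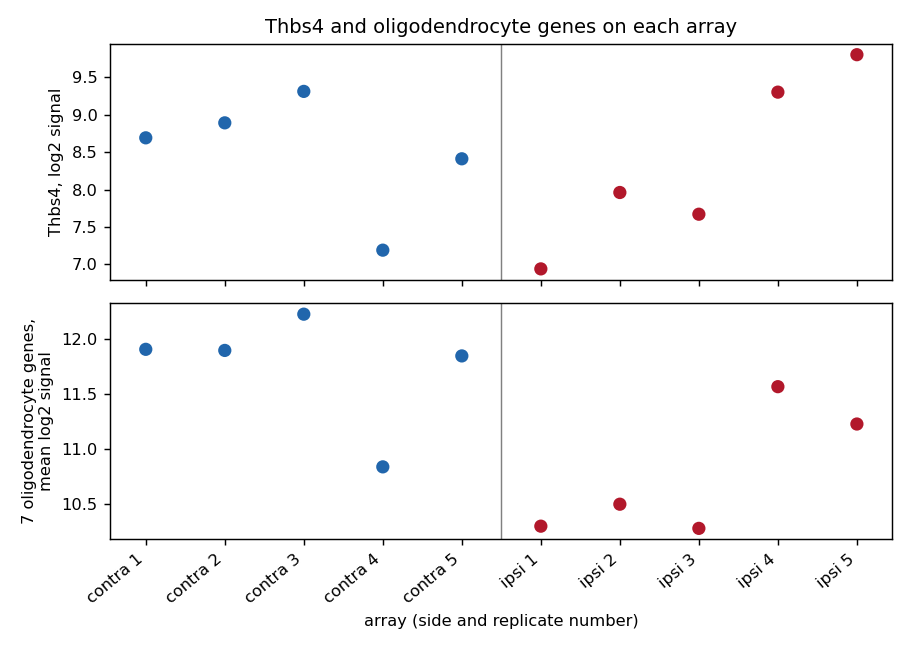
Thbs4 log2 signal (top) and the mean log2 signal of 7 oligodendrocyte genes (bottom) on each array, blue for contralateral and red for ipsilateral. In both panels ipsilateral replicates 4 and 5 are the highest of their side and contralateral replicate 4 is the lowest of its side.

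Postn encodes periostin, a fibroblast-made ligand of integrins that supports collagen crosslinking. It was dim: 5.65, 5.37, 5.50, 5.40 and 5.52 ipsilaterally and 5.13, 5.59, 5.06, 5.25 and 4.97 contralaterally, where array medians reached 4.84. Every ipsilateral array was above the contralateral mean, but contralateral replicate 2 lay among the ipsilateral arrays. The log2 difference was 0.29 ± 0.11 (SE) (95% interval 0.04 to 0.53, limma adjusted p = 0.166). Leaving out contralateral replicate 2 gave 0.39, which passed (adjusted p = 0.0293). This was the 1 call in 10 fits that left out 1 array (limma adjusted p up to 0.309 in the others).

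Promoter sequences were held for 4 of the 9 measured genes (Sparc, Postn, Thbs2 and Thbs4) in the RefSeq table of GRCm38.p6, as windows from 250 bases before to 50 after a transcript start, on the strand of the gene. Printed here are that of Sparc, the gene with the smallest adjusted p among the members, and for contrast those of Thbs2 and Thbs4, which did not pass. Capitals mark matches on either strand to the letters of AP-1 (TGANTCA), TEAD (GGAATG), SMAD (CAGACA), the GC box (GGGCGG) and the core of the so-called TATA box (TATAAA).
Sparc, chr11:55420031-55420330, minus strand: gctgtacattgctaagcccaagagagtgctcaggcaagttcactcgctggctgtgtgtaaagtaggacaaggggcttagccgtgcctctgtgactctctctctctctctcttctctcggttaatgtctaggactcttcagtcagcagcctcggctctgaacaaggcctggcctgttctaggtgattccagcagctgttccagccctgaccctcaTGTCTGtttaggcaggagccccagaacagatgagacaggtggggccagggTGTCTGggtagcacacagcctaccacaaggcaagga
Thbs2, chr17:14694213-14694512, minus strand: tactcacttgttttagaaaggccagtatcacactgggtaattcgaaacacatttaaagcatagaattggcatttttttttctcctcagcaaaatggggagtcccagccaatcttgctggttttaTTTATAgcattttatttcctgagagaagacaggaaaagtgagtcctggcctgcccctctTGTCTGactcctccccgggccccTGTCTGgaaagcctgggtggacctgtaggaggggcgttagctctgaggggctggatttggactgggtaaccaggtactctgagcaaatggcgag
Thbs4, chr13:92794769-92795068, minus strand: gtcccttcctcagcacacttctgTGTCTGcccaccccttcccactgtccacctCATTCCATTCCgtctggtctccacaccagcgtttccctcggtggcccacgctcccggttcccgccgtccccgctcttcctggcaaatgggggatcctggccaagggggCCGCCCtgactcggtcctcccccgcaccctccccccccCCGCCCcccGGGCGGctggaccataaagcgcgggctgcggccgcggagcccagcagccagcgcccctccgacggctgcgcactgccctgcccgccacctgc

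The Sparc window held 2 SMAD letter matches and no match to the other 4 motifs. Thbs2, which did not pass, also held 2 SMAD matches, with 1 to the TATA box letters on the opposite strand. No window was held for Smoc1, the other gene that rose. Thbs4 held 1 SMAD match, 3 to the GC box and 2 to TEAD that overlap by 1 base. Postn had 2 annotated starts: the window at chr3:54360857-54361156 held the letters TATAAA from 26 bases before the start, and the one at chr3:54359017-54359316 held none of the 5 motifs. Among all 32851 windows of the table, the SMAD letters occurred in 21.0%, the TATA box in 13.6%, the GC box in 35.7%, TEAD in 14.7% and AP-1 in 7.81%. Binding was not measured.

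Most genes related to these proteins were not called either. Of 70 genes in 10 lists of relatives, partners and receptors, 66 were measured, 3 rose (against 1.22% of all genes) and 3 fell (against 4.33%). Their median log2 difference was 0.14, beside 0.02 over all genes, and 53 were positive, beside 56.1% of all genes. At an unadjusted limma p under 0.05, 25 were higher and 8 lower, beside 21.3% of all genes in either direction. These lists too were chosen with earlier results of these data known, so their shares are a description. The counts of 3 rises and 3 falls were small, and that of rises moved with single arrays. The count of rises was 0 without ipsilateral replicate 4 or contralateral replicate 1, 2, 3 or 5, 1 without ipsilateral replicate 3, 5 without contralateral replicate 4 and 10 without ipsilateral replicate 1. Without the arrays numbered 2 and 4, 0 rose and 0 fell.

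Among further SPARC relatives, Spock3, which encodes a testican proteoglycan made by neurons, fell (9.79 ± 0.32 against 10.37 ± 0.10, mean log2 signal ± SD, n = 5; limma adjusted p = 0.0347). Its call held in 2 of 10 fits that left out 1 array and ended in the other 8 (adjusted p up to 0.0934). Its paralogue Spock1 had a difference of -0.46 (adjusted p = 0.0942), and Fstl1, the follistatin-like member, one of 0.53 (adjusted p = 0.184). None of the 2 other thrombospondin genes, Thbs3 (0.11) and Comp (0.09), passed, and Comp was at or below the array median on all 10 arrays.

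CCN proteins, matricellular regulators that include the YAP-induced Ccn1 and Ccn2, gave 0 calls among 6 in limma. At an unadjusted p under 0.05, 2 differed, beside 21.3% of all genes in either direction. Ccn1 and Ccn3 had the strongest statistics, in opposite directions (-0.74, adjusted p = 0.194, and 1.05, adjusted p = 0.164). Without contralateral replicate 4 the Ccn3 difference was 1.39 and passed (limma adjusted p = 0.0313), and without contralateral replicate 1 the Ccn1 difference was -0.47 (adjusted p = 0.300). Of 10 fits that left out 1 array, Ccn3 passed in 1 (adjusted p up to 0.296 in the others) and Ccn1 in 0. Of 4 tenascins 1 rose, beside 1.22% of all genes. This was Tnc, the injury-associated tenascin C (6.83 ± 0.49 against 5.95 ± 0.20, difference 0.88, limma adjusted p = 0.0350). Its call was kept in 2 of 10 fits that left out 1 array (adjusted p up to 0.0899 in the others). Tnr, the tenascin of perineuronal nets, stood at 12.13 and 12.12. The Spp1 relatives Ibsp, Dspp and Mepe, mineralised-tissue proteins, were at or below the array median on all 10 arrays, and Dmp1 had a difference of -0.33 (adjusted p = 0.171).

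Fibronectin-associated and crosslinking proteins were mostly higher ipsilaterally without passing. Of 13 measured genes 12 were positive, beside 56.1% of all genes, with a median difference of 0.47. In limma 0 passed, with 7 at an unadjusted p under 0.05, beside 21.3% of all genes in either direction. The nearest were Vtn, the plasma and pericyte adhesion protein vitronectin (0.73, adjusted p = 0.0514), and the lysyl oxidase Loxl3 (0.27, adjusted p = 0.0583). Without ipsilateral replicate 1 both passed (limma adjusted p = 0.0354 and 0.0401), and Vtn also passed without ipsilateral replicate 2 (adjusted p = 0.0399). Of 10 fits that left out 1 array, Vtn passed in 2 and Loxl3 in 1 (adjusted p up to 0.125 and 0.136 in the others). All 7 collagen chains were positive. At an unadjusted limma p under 0.05, 6 of them differed, beside 21.3% of all genes in either direction. After adjustment 1 passed, beside 1.22% of all genes called higher. This was Col1a1 of fibrillar collagen I (0.80, limma adjusted p = 0.0398). Its call was kept in 3 of 10 fits that left out 1 array (adjusted p up to 0.0963 in the others). Col3a1 had a difference of 0.48 (adjusted p = 0.0766).

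Among 15 integrin, CD44 and syndecan receptors 12 were positive, beside 56.1% of all genes. At an unadjusted limma p under 0.05, 6 differed, beside 21.3% of all genes in either direction. After adjustment 1 passed, beside 1.22% of all genes called higher. This was Sdc2, a heparan sulfate proteoglycan that binds fibronectin (9.60 ± 0.25 against 9.10 ± 0.19, difference 0.50, limma adjusted p = 0.0491), and its call held in 3 of 10 fits that left out 1 array (adjusted p up to 0.123 in the others). Itgb5, the integrin beta chain of a vitronectin and osteopontin receptor, had a difference of 0.86 (adjusted p = 0.0804). The 6 TGF-beta ligands and receptors were all positive with 0 passing in limma, such as Tgfb1 (0.48, adjusted p = 0.135) and Tgfbr2 (0.70, adjusted p = 0.155). At an unadjusted p under 0.05, 4 of the 6 differed, beside 21.3% of all genes in either direction. Without ipsilateral replicate 1 Itgb5 (1.02, limma adjusted p = 0.0306) and Tgfbr2 (0.90, adjusted p = 0.0389) passed. In that fit 760 of all genes were higher, in place of 369. Each of the 2 genes passed in 1 of 10 fits that left out 1 array (adjusted p up to 0.178 and 0.288 in the others).

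Of the 3 related genes that fell, 2 were thrombospondin receptors. They are among 5 measured genes in a list of thrombospondin and hevin receptors, and over all genes 4.33% were lower. Lrp1, an endocytic receptor that takes up thrombospondin complexes, stood at 12.62 ± 0.11 against 13.04 ± 0.11 and fell by 0.42 (limma adjusted p = 0.00851). Cd47, the cell surface ligand of SIRP-alpha and a thrombospondin 1 receptor, fell by 0.39 (13.80 ± 0.12 against 14.19 ± 0.09, limma adjusted p = 0.00964). In both, no ipsilateral array reached a contralateral one, and both calls held in 10 of 10 fits that left out 1 array but not without the arrays numbered 2 and 4 (adjusted p = 0.0823 and 0.157). The other thrombospondin receptor with a large difference, Cd36, went the other way without passing (0.95, adjusted p = 0.0746), and the calcium channel subunit Cacna2d1 had -0.14.

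**Figure D5:**
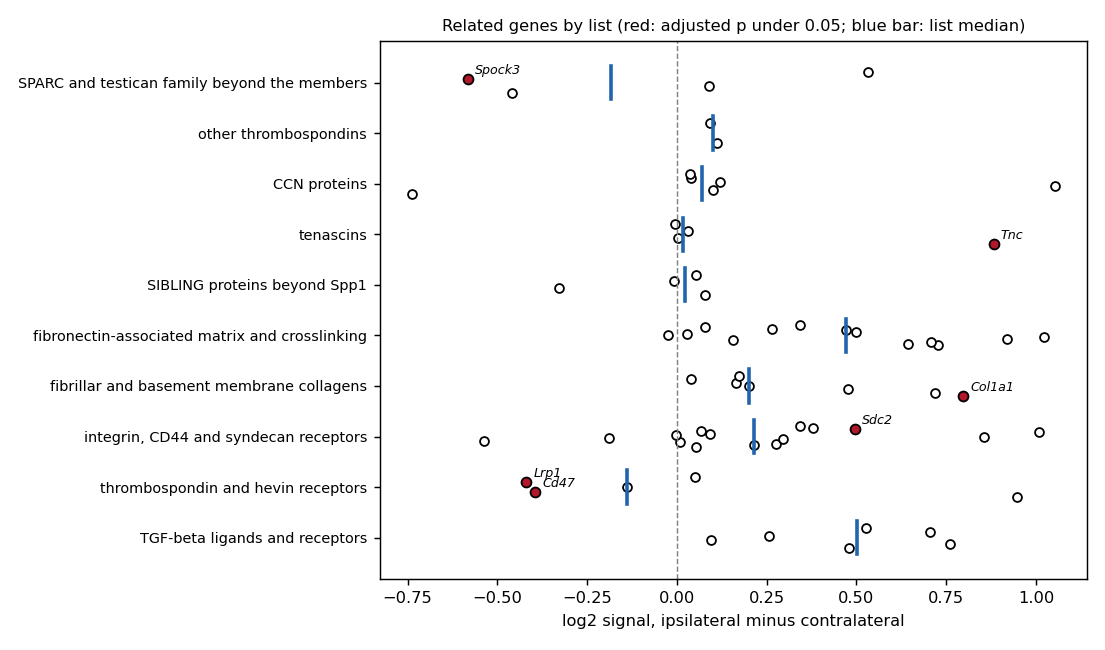
Log2 difference between sides of 66 related genes in 10 lists; each point is a gene, red where the limma adjusted p is under 0.05, and the blue bar is the list median. Tnc, Col1a1 and Sdc2 are the red points to the right of 0, and Spock3, Lrp1 and Cd47 those to the left.

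Some markers of cell types known to make these proteins rose ipsilaterally, while most did not pass the test. In tissue RNA more cells of a type and more RNA per cell cannot be told apart. Over all genes 1.22% were called higher and 4.33% lower. Of 10 fibroblast and meningeal genes all were positive and 3 rose (Dcn, Col1a1 and Aldh1a2). Their mean log2 signal ran from 7.71 to 9.26 ipsilaterally and from 6.58 to 7.52 contralaterally, with ipsilateral replicate 5 at 9.26 and none at or below the array median on all arrays. Of 9 monocyte and macrophage genes all were positive and Cd163 rose (5.79 against 5.32). The mean log2 signal of the 9 genes was 6.24 to 7.72 against 5.88 to 6.39, with Plac8 at or below the array median on all arrays. Of 9 measured astrocyte genes 6 were positive and Aqp4 rose (8.22 against 7.27). The mean log2 signal of the 9 genes was 10.21 to 10.77 against 10.16 to 10.35. Ranges given below for other lists are likewise means over the genes of the list, ipsilateral against contralateral.

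Several other lists were positive throughout with 0 genes passing in limma: 9 measured microglial genes (8.39 to 9.41 against 7.98 to 8.42), 8 genes of injury-associated phagocytes (6.03 to 8.31 against 5.76 to 6.47) and 8 reactive astrocyte genes (7.62 to 9.96 against 6.90 to 7.87). At an unadjusted p under 0.05 these counts were 7, 5 and 6, beside 21.3% of all genes in either direction. Of 8 pericyte and smooth muscle genes 7 were positive, with 0 called and 4 at an unadjusted limma p under 0.05 (7.24 to 8.36 against 7.16 to 7.51), again highest on ipsilateral replicate 5. Endothelial genes, which mark a major source of Sparc, had a median difference of 0.04 over 10 genes, with 0 called in limma and 2 at an unadjusted p under 0.05 (8.47 to 9.13 against 8.59 to 9.03). Oligodendrocyte precursor genes overlapped between sides (8.04 to 8.54 against 8.18 to 8.48, 5 measured genes). The part of these cell types in the Sparc, Smoc1, Fn1 and Thbs1 values was not tested.

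Some neocortical layer markers differed between sides. Of 9 measured neocortical layer genes 5 fell and 1, Bcl11b, rose (mean log2 signal 10.59 against 9.73). The mean log2 signal of the 9 genes ran from 9.46 to 9.80 ipsilaterally and from 10.24 to 10.45 contralaterally. Of the 9 neuronal genes 2 fell, Rbfox3 and Nefl. Over all genes 4.33% were lower and 1.22% higher. Of 7 measured striatal genes 6 were positive (mean log2 signal of the 7 genes 7.07 to 8.40 against 6.83 to 7.16). In limma 0 striatal genes passed, with 3 at an unadjusted p under 0.05, beside 21.3% of all genes in either direction. How far the position of the dissection entered the values of the matrix genes was not tested.

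The genes whose signals were most like a member over the 10 arrays, by Pearson correlation and as a description that includes the difference between sides, differed from member to member. Sparc was closest to Vps35l (0.979), Plce1 (0.978) and Cd163, a macrophage scavenger receptor (0.977). Smoc1 was closest to Aldh1a2, the retinoic acid-synthesising enzyme of the meninges (0.983), then Lix1l (0.972) and Plat, tissue plasminogen activator (0.967). Mgp, the matrix Gla protein of vascular and fibroblast cells, came first for both Fn1 (0.993) and Thbs1 (0.981). Anpep (0.985) and Uaca (0.976) followed for Fn1, and the interferon-induced Ifitm2 (0.978) and Chst12 (0.973) for Thbs1. Mgp itself had a difference of 1.04 that did not pass (limma adjusted p = 0.126) and ran from 8.71 to 10.83 ipsilaterally and from 7.90 to 8.84 contralaterally.

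For Smoc2 the closest were Rimklb (0.958), the neuronal copine Cpne6 (0.955) and Ece2 (0.954). Thbs4 was closest to Fam234a (0.959), Ccdc190 (0.950) and the deacetylase Sirt2 (0.945), Thbs2 to Plod2, which hydroxylates collagen lysines (0.931), Ikbip (0.918) and Mob3b (0.910), and Postn to Tcf12 (0.930), Cflar (0.909) and Ltbp3 (0.906). For Sparcl1 they were Ibsp (0.950), Rny3 (0.925) and Lrrc4b (0.919), of which Ibsp lay below the array medians. No member was among the 3 closest genes of another, and of the related genes listed here only Ibsp was, for Sparcl1.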

How the data were processed

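Whole-transcript arrays of 10 mouse brain samples, 5 a side, were analysed from log2 signals as deposited by the authors. The submitters' processing notes name Transcriptome Analysis Console 4.0; that the scale is log2 was inferred from the range of values, 1.97 to 19.93. How background was corrected, how arrays were normalized and summarized, and on which genome build, is not given in the sources used here. Rows naming 1 gene symbol (30604 of 65956, a symbol repeated within a row counted once) were updated by Entrez identifier to RefSeq GRCm38.p6 symbols, and the brightest row per gene by its mean over 10 arrays was kept, giving 30142 genes. Another 2146 rows named several genes and 33206 were unnamed here. Sides were compared with limma 3.58.1 in R 4.3.3 (lmFit, eBayes, no covariates), with Benjamini-Hochberg adjustment and a threshold of 0.05; the steps were tested on simulated data.

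The members and lists were chosen with earlier results of these data known. Genes were named by rule: all members, in each related list the 2 largest absolute moderated statistics and any called gene where 5 or fewer were called, and the 3 genes most correlated with each member (predicted-gene symbols left out). Other genes (Fstl1, Tnr, Cd36, Cacna2d1, Mal, Mgp, the called cell markers and the dim genes) were named after their values were seen. No slide or scan date was given, so batch was not tested. Alternatives were a replicate block, variance models, array weights, scaling, filters on dim genes, the mean of a gene's rows, protein-coding genes, a threshold of 0.01, an exact permutation test and arrays left out.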

Additional observations from a re-analysis of the deposited data

Results flagged for a closer look

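Thbs1 on ipsilateral replicate 5 (8.17) stood far above the other 4 ipsilateral arrays: its gap of 1.65 to the next was 79.7% of the range of that side, which exceeds Dixon's critical ratio for 5 samples. It was the 1 array set apart in this way among 18 groups of 5 examined (9 genes on both sides); chance marks about 1 group in 20.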

How the results depend on the processing

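The counts of members called (2 higher, 0 lower) kept to 2 or 3 higher and 0 lower in every fit except 2. Without the arrays numbered 2 and 4, 1 was higher (Smoc1). By an unadjusted exact two-sided permutation test 6 were higher: Sparc, Smoc1, Smoc2, Fn1, Thbs1 and Postn. That test was run on the 9 measured members alone, so it has no share over all genes beside it. At an unadjusted limma p under 0.05, 21.3% of all genes differed in either direction. Leaving out 1 array gave 2 to 3. Over all genes, the higher count (369) was 47 at a threshold of 0.01, 656 with array weights, 225 with median centring, 177 with the replicate block as a fixed term and 77 without arrays 2 and 4. The lower count (1305) was 537, 2130 and 769 at 0.01, with median centring and with the fixed replicate block, and 289 without arrays 2 and 4. Leaving out 1 array gave 111 to 760 higher and 740 to 1607 lower. Among related genes, 3 higher became 0 at 0.01, 7 with array weights, 2 with trended variance, with median centring and with the fixed replicate block, 5 and 11 without the dimmest 25% and 50% of genes, 10 over protein-coding genes and 0 without arrays 2 and 4, and 3 lower became 0 without the latter. Under the fixed replicate block Tnc (adjusted p = 0.0535), Col1a1 (0.112), Sdc2 (0.0697) and Spock3 (0.0733) did not pass, so the 2 higher there are other genes. Leaving out 1 array gave 0 to 10 higher and 2 to 4 lower.

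Signs turned for Sparcl1 (-0.24 with quantile scaling, -0.016 with median centring, -0.038 with cyclic loess, -0.04 without arrays 2 and 4, and -0.0275 to 0.085 with 1 array left out), for Thbs4 (-0.53 to 0.18 with 1 array left out), for Tnxb (-0.0236, -0.032 and -0.0137 with the 3 scalings and -0.0033 without arrays 2 and 4) and for Ibsp (-0.0033 without arrays 2 and 4); the cause was not tested. Over all genes, the deviations of same-numbered arrays correlated at 0.26, 0.25, -0.04, -0.40 and -0.03 for numbers 1 to 5. Of 5 ipsilateral arrays 1 correlated best with its own number. These correlations cannot decide whether same-numbered arrays share an animal. The labels name no animals, so this is not known, and the numbers were not treated as pairs in the main fit. Arrays 2 and 4 of both sides were high in choroid plexus genes. With the replicate block as a fixed term Sparc (adjusted p = 0.0143) and Smoc1 (0.0357) still passed. Postn and the dim relatives lie near the array medians, where signal over background was not shown. Leaving out the dimmest 50% of genes removed Postn, Thbs3, Comp, Tnxb and Ibsp, and leaving out 25% removed Ibsp, so these have no value there.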
